A study of Mus musculus with 4 samples.

Results

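The genes described here were 7 of the 46517 gene identifiers counted in ear dermal endothelial cells: the secreted acute-phase proteins *Lbp*, *Lrg1* and *Lcn2*, the lipopolysaccharide co-receptor *Cd14*, the Toll-like receptors *Tlr2* and *Tlr4*, and the adaptor *Myd88*. They were chosen by name, with their CPM and shares of wells in artery-, capillary- and vein-like cells already known from these data, and were followed across these classes of blood vascular endothelial cells (BECs), which were identified by other markers. The levels across these classes are therefore given as a description without a test. *Lrg1* was the most abundant of the 7 genes. Of the BEC classes, it and *Lbp* had their highest means in vein-like BECs. Over all groups of wells, the means of *Lbp* and *Lcn2* were highest in sorted wells that carried lymphatic genes.

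Acute-phase proteins are released, mainly by the liver, when cytokines such as interleukin-6 and interleukin-1 signal an infection or injury, and several of them are also made by cells at the site of inflammation. Lipopolysaccharide of Gram-negative bacteria is carried by Lbp to Cd14 and from there to the complex of Tlr4 and Ly96, while Tlr2 recognises bacterial lipoproteins. Both receptors recruit Myd88, which passes the signal to Irak kinases and NF-kB, and endothelial cells of post-capillary venules are known for answering such signals with adhesion molecules for leukocytes.

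Single CD31+/CD45-/Lyve1- cells of the ear dermis of adult wild-type female mice (strain C57Bl/6; 12 to 26 weeks according to the labels, whereas the study's methods give a younger range) had been sorted into 384-well plates and sequenced by Smart-seq2, a full-length method without molecular identifiers. The 4 plates form 2 replicates with plates A and B each, and cells were pooled from 6 mice. The sources do not settle whether each replicate was a pool of its own, so p-values measure the spread between these samples, which may be technical. No treatment, genotype or time was compared: the groups are classes of cells within each replicate.

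Plates A and B of replicate 1 held 74739095 and 63091443 reads on genes, and those of replicate 2 held 31864976 and 35546726, with median reads per well of 40324 to 182926 over the 4 plates. A well was kept as a BEC when reads of 2 or more of the endothelial genes *Pecam1*, *Kdr* and *Cdh5* were found and the lymphatic genes *Prox1* and *Lyve1*, the leukocyte gene *Ptprc* and the mural genes *Kcnj8* and *Pdgfrb* each stayed under 100 CPM (CPM, reads of a gene scaled to 1000000 reads on genes), which left 338 wells of replicate 1 and 363 of replicate 2. Clustering without the 7 genes gave 23 and 25 artery-like, 98 and 14 capillary-like and 53 and 65 vein-like BECs in replicates 1 and 2, and 164 and 259 BECs had no class. The wells without a class included cluster 1, named mural by its markers (23 and 64 wells), and cluster 9, named lymphatic (9 and 27 wells). The vein markers *Selp*, *Sele*, *Vcam1*, *Ackr1*, *Vwf*, *Nr2f2* and *Ephb4* summed to 4421 and 4618 CPM in vein-like BECs. In the other 2 classes they summed to 445 to 665 CPM. In replicate 2, however, *Vcam1* was higher in artery-like (93.6 CPM) than in vein-like BECs (1.22 CPM). Likewise, *Nr2f2* of replicate 2 was higher in capillary-like (163 CPM) than in vein-like BECs (63.9 CPM). Artery-like BECs held artery markers at 8679 and 6799 CPM beside capillary markers at 8164 and 1901 CPM. The capillary-like class held capillary markers at 12997 and 7566 CPM beside artery markers at 4290 and 3306 CPM. Among the wells not kept, 8 and 38 mural-gene wells (at least 300 CPM of *Pdgfrb* or *Kcnj8*) and 11 and 113 lymphatic-gene wells (at least 300 CPM of *Prox1* or *Lyve1*) served for comparison. The mural-gene wells carried artery markers at 3041 and 1515 CPM and capillary markers at 3386 and 530 CPM beside mural markers at 18279 and 13723 CPM, so they were no background free of endothelial transcripts. Median reads were 116644 and 142172 in artery-like, 137517.5 and 64549.5 in capillary-like, 187248 and 176317 in vein-like and 104565 and 48247 in lymphatic-gene wells.

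Promoters of 4 of the 7 genes were matched in the RefSeq promoter table of build GRCm38.p6, as 250 bases before and 50 bases after the annotated start. Those of *Lrg1*, *Lcn2* and *Tlr2*, all on the minus strand, are shown because they differ in the motifs they hold, and capitals mark the matches. They lie at chr17:56121897-56122196, chr2:32387690-32387989 and chr3:83841559-83841858.
Lrg1: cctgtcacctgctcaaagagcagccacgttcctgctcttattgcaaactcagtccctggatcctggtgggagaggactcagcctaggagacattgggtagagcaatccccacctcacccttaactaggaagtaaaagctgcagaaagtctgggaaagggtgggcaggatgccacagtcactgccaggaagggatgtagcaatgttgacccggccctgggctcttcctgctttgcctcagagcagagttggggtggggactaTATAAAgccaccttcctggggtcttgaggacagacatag
Lcn2: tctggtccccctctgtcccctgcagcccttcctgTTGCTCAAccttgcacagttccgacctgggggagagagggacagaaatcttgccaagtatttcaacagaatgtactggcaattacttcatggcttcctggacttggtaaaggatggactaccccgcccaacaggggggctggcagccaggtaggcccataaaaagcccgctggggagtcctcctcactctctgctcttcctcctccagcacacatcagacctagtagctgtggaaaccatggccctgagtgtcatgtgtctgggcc
Tlr2: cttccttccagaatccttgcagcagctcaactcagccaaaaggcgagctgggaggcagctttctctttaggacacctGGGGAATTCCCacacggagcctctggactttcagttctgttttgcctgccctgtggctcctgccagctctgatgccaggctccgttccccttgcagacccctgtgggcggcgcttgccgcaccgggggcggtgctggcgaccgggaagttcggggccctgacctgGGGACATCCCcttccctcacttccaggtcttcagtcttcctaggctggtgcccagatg
Searched on both strands were TATAAA, the C/EBP motif TTGCNNAA, the STAT motif TTCNNNGAA and a degenerate NF-kB consensus. The *Lrg1* promoter held only TATAAA, 11 to 16 bases after the annotated start, and the *Lcn2* promoter only the C/EBP motif, at positions -216 to -209. The *Tlr2* promoter held the NF-kB consensus at 2 places, around -173 to -163 and around -8 to 1, with 5 matches that overlap each other or lie on both strands. Of 32851 promoters of this length, 13.6% held TATAAA, 10.8% the C/EBP motif, 8.30% the STAT motif and 8.46% the NF-kB consensus. A match describes the letters and not a site in use.

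Per kilobase of exons, *Lrg1* had the highest mean level over kept BECs, at 271 ± 2.49 CPM per kb (SD, n = 2 replicates). *Myd88* followed at 40.8 ± 4.64 and *Lbp* at 21.1 ± 6.31 CPM per kb. *Tlr2* had 8.73 ± 0.25, *Lcn2* 4.9 ± 3.5, *Cd14* 3.18 ± 4.09 and *Tlr4* 2.78 ± 0.37 CPM per kb. The 2 replicates gave the same order for *Lrg1*, *Myd88* and *Lbp*, with no overlap between neighbours, whereas the levels of *Lcn2*, *Cd14* and *Tlr4* overlapped.

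**Figure D1:**
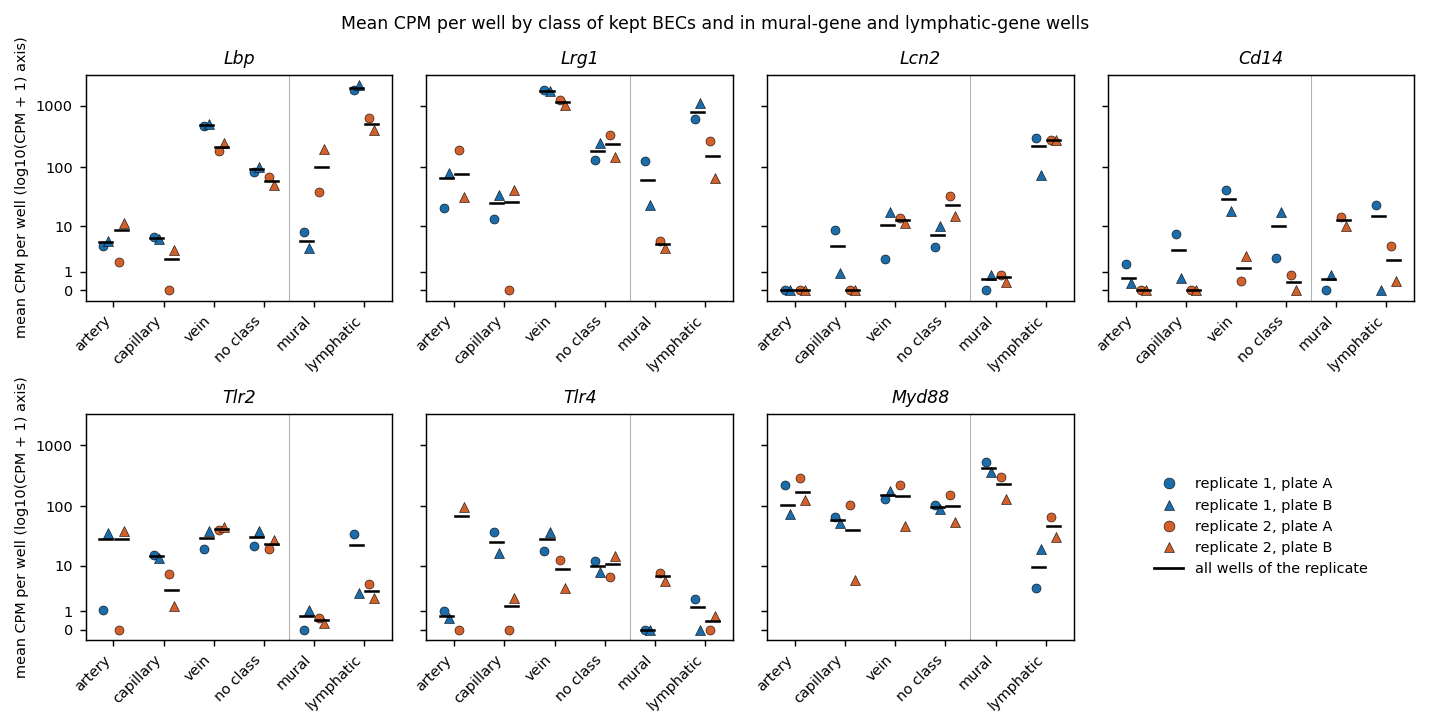
Mean CPM per well of each gene (log10(CPM + 1) axis) in the 3 classes and the unclassed wells of kept BECs and, right of the grey line, in mural-gene and lymphatic-gene wells. Points are plates, coloured by replicate, and black lines are all wells of a replicate. *Lbp* lay at 185 to 508 CPM on the 4 plates in vein-like BECs and at 0 to 11.3 CPM in artery- and capillary-like BECs.

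*Lbp* (lipopolysaccharide-binding protein; chr2:158306493-158332852, plus strand, mm10) averaged 493 CPM in vein-like BECs of replicate 1 and 211 CPM in those of replicate 2. Artery-like BECs averaged 5.16 and 8.65 CPM, and capillary-like BECs 6.11 and 2.25 CPM, the last from 1 read in 14 wells. The vein-like means lay above all others in both replicates and on each of the 4 plates, and the mean over vein-like wells exceeded that over artery-like wells 95.5-fold and 24.4-fold. The vein-like wells themselves were uneven: the median was 11.1 CPM in replicate 1 and 0 in replicate 2, the highest wells had 3932 and 2760 CPM, and 22 of 53 and 12 of 65 wells had at least 100 CPM. In the other 2 classes, only 1 artery-like well of replicate 2 and 1 capillary-like well of replicate 1 reached that level.

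Detection alone separated the classes less than the level did. A read of *Lbp* was found in 67.9% of vein-like wells of replicate 1 (exact binomial 95% interval 53.7 to 80.1) and in 44.6% of those of replicate 2 (32.3 to 57.5), against 47.8% and 36.0% of artery-like wells. Of the 38 capillary-like wells with a read in replicate 1, 35 had 1 to 3 reads. When each well was thinned to 20000 reads, which removes differences in depth and leaves out shallower wells (2 vein-like, 1 artery-like, 2 capillary-like and 29 of 113 lymphatic-gene wells, all of replicate 2), *Lbp* was found in 49.1% and 22.2% of vein-like, 13.04% and 8.33% of artery-like and 8.16% and 8.33% of capillary-like wells. Mural-gene wells had 0% (0 of 8 wells, which allows up to 37.5%) and 13.2% after thinning, with a median depth of 197461.5 and 170239 reads before it, and the shares in artery- and capillary-like BECs of replicate 2 did not exceed theirs. Intervals cover counting error only, as reads without molecular identifiers are not independent molecules.

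*Lrg1* (leucine-rich glycoprotein, a secreted modulator of TGF-beta signalling in vessel growth; chr17:56119678-56122001, minus strand) averaged 1761 and 1149 CPM in vein-like BECs of replicates 1 and 2. Artery-like BECs averaged 66.5 and 76.4 CPM and capillary-like BECs 25.1 and 26.6 CPM. All vein-like means lay above all others, with 26.5- and 15.04-fold higher means than in artery-like and 70.1- and 43.1-fold higher means than in capillary-like BECs. Unlike *Lbp*, *Lrg1* was high in most vein-like wells: the medians were 1784 and 839 CPM, and 48 of 53 and 43 of 65 wells had at least 100 CPM, of which 35 and 31 had at least 1000 CPM. No artery- or capillary-like well reached 1000 CPM.

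Reads of *Lrg1* were present in 98.1% and 81.5% of vein-like wells and, after thinning, in 94.3% (84.3 to 98.8) and 71.4% (58.7 to 82.1). Artery-like BECs had 43.5% and 25% and capillary-like BECs 23.5% and 25% after thinning. In mural-gene wells the thinned shares were 25% (2 of 8 wells) and 10.5%, and the interval of the capillary-like share of replicate 2 (5.49 to 57.2) included the latter. Artery-like means exceeded capillary-like means 2.65- and 2.87-fold, with 1 artery-like well of each replicate at 542 and 923 CPM, and without that well the artery-like means were 44.9 and 41.1 CPM.

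**Figure D2:**
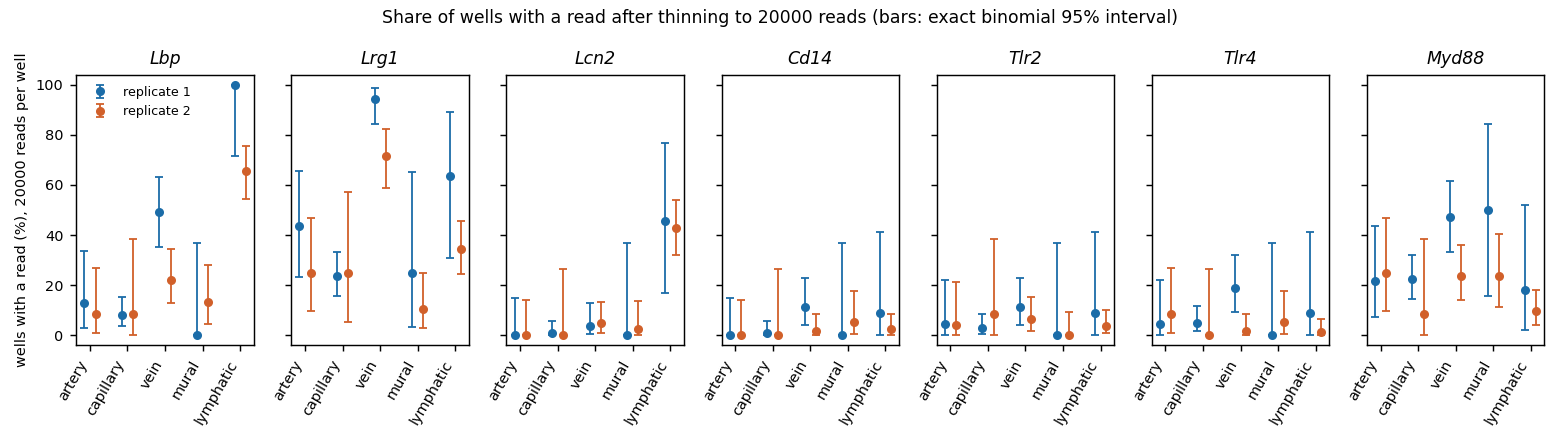
Share of wells with a read of each gene after thinning every well to 20000 reads, for artery-, capillary- and vein-like BECs and for mural-gene and lymphatic-gene wells; bars are exact binomial 95% intervals and colours are replicates. *Lrg1* in vein-like BECs (94.3% and 71.4%) and *Lbp* in lymphatic-gene wells (100% and 65.5%) had the highest shares.

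*Lcn2* (lipocalin-2, which withholds iron from bacteria by binding siderophores; chr2:32384633-32388252, minus strand) was rare in BECs. Vein-like BECs averaged 10.8 and 13.01 CPM, and capillary-like BECs 4.36 and 0 CPM. No read was found in 23 and 25 artery-like wells, which allows shares of up to 13.04% and 12%, or in 14 capillary-like wells of replicate 2, which allows up to 21.4%. The vein-like means were both above the others, yet they came from 7 of 53 and 7 of 65 wells, and thinned shares were 3.77% and 4.76%, against 0% (which allows up to 37.5%) and 2.63% in mural-gene wells. Over all kept BECs, *Lcn2* averaged 6.37 and 19.4 CPM, and 1 unclassed well of replicate 2 at 2631 CPM raised the latter from 12.1 CPM. That well was 1 of 27 in a lymphatic-like cluster (cluster 9), and without this cluster kept BECs averaged 5.58 and 7.25 CPM.

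*Cd14* (chr18:36725067-36726798, minus strand) averaged 29.3 CPM in vein-like BECs of replicate 1 but 1.35 CPM in those of replicate 2. In artery-like BECs it averaged 0.61 and 0 CPM, and in capillary-like BECs 3.54 and 0 CPM. The vein-like mean was the highest class mean within each replicate, from 9 of 53 and 2 of 65 wells. Of 338 and 363 kept BECs, 25 and 3 had a read, and 5 vein-like wells of replicate 1 but none of replicate 2 reached 100 CPM. The sort had taken CD45- cells, and in vein-like BECs the 8 myeloid markers summed to 6.29 and 6.53 CPM. Of these, *Csf1r* made 3.88 and 4.07 CPM, and *Adgre1* was at 0 in both replicates. Of the neutrophil list, *S100a8*, *S100a9* and *Retnlg* were at 0 and *Csf3r* at 0 and 2.23 CPM. These are means over the class and do not describe the wells with a read of *Cd14*.

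The receptor *Tlr2* (chr3:83836272-83841767, minus strand) averaged 30.3 and 42.9 CPM in vein-like, 29.1 and 28.6 CPM in artery-like and, in the capillary-like class, 14.5 and 3.41 CPM. The vein- and artery-like means differed by less than 1 well could add: without the highest well, the artery-like means were 2.16 and 0.13 CPM and the vein-like means 14.96 and 24.0 CPM. A read was found in 12 of 53 and 4 of 65 vein-like wells and in 4 of 23 and 2 of 25 artery-like wells. Thinned shares were 11.3% and 6.35% in vein-like, 4.35% and 4.17% in artery-like and 3.06% and 8.33% in capillary-like BECs, with overlapping intervals, against 0% in mural-gene wells of both replicates (which allows up to 37.5% and 7.89%). A difference in share between the classes was not detectable at this depth.

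*Tlr4*, the lipopolysaccharide receptor (chr4:66827584-66930284, plus strand), changed its order between replicates. In replicate 1 it averaged 29.0 CPM in vein-like, 26.1 CPM in capillary-like and 0.64 CPM in artery-like BECs. In replicate 2 it averaged 8.85 CPM in vein-like, 1.44 CPM in capillary-like and 70.3 CPM in artery-like BECs. The last mean rested on 3 of 25 wells and was 14.5 CPM without the highest well. Reads were found in 16 of 53 vein-like wells of replicate 1 (30.2%, 18.3 to 44.3) but in 2 of 65 of replicate 2 (3.08%, 0.38 to 10.7), a gap that remained after thinning (18.9% and 1.59%).

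*Myd88* (chr9:119335934-119341411, minus strand) was present in all classes. It averaged 156 and 148 CPM in vein-like, 107 and 173 CPM in artery-like but only 59.4 and 40.8 CPM in the capillary-like class. Vein- and artery-like means overlapped and both lay above the capillary-like means, of which that of replicate 2 came from 2 of 14 wells and was 3.75 CPM without the highest well. Plates were uneven within a class, with 47.5 to 224 CPM over the 4 plates in vein-like BECs. The gene overlaps *Acaa1a*, which encodes a peroxisomal thiolase on the opposite strand: 290 of its 2576 exonic bases (11.3%) were shared. Because Smart-seq2 does not mark the strand, reads in the shared bases cannot be told apart.

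In the fit over all genes, counts were summed per replicate and class, and each class was set against the mean of the remaining 2 (edgeR quasi-likelihood test, replicate as a block). The log2 ratio of vein-like BECs to the mean of the others was 6.63 (SE 1.09) for *Lbp* and 5.22 (SE 0.58) for *Lrg1*. For *Lcn2* it was 5.91 (SE 2.40), for *Cd14* 4.64 (SE 2.36), for *Myd88* 1.38 (SE 1.05), for *Tlr2* 1.36 (SE 1.64) and for *Tlr4* -0.08 (SE 1.85). The median over the 13756 genes tested was 0.43, so values are to be read against that shift. The ratios of the sparse genes *Lcn2* and *Cd14*, which had 0 reads in some sums, depend on the prior count. The choice of the genes had already used this comparison, so these ratios are given without a test.

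The ratio was positive for *Lbp* under all 16 alternatives (3.39 to 7.61) and for *Lrg1* under all 16 (2.59 to 5.78), including classes cut from marker scores without *Selp*, *Sele* and *Vcam1*. With a marker limit of 300 CPM, however, the order of the mean *Lbp* levels per well turned in replicate 2, to 946 CPM in capillary-like against 319 CPM in vein-like BECs, and without 1 capillary-like well of 53202 CPM the former was 12.8 CPM. The ratio of *Tlr4* changed its sign in 12 of 16. Capillary-like BECs had log2 ratios of -4.20 (SE 0.71) for *Lrg1* and -3.73 (SE 1.27) for *Lbp*. For artery-like BECs the log2 ratios were -1.02 (SE 0.59) for *Lrg1*, which changed its sign in 2 of 16 alternatives, and -2.90 (SE 1.19) for *Lbp*.

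**Figure D3:**
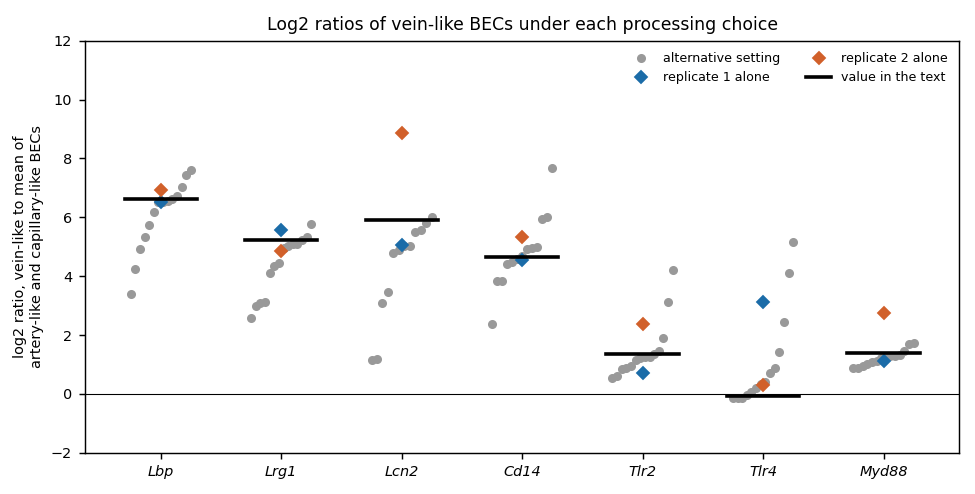
Log2 ratio of vein-like BECs to the mean of artery-like and capillary-like BECs for each gene. Black lines are the values in the text, diamonds each replicate alone and grey points the other processing choices; *Lbp* and *Lrg1* lie between 2.59 and 7.61 throughout, while *Tlr4* lies on both sides of 0.

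The vein-like BECs came from 2 clusters that differed in their markers. Cluster 6 (36 and 27 wells) had raised *Selp*, *Sele*, *Ackr1* and *Vwf*, the first 2 of which encode selectins that capture rolling leukocytes. Cluster 7 (17 and 38 wells) had raised *Ackr1*, *Vwf* and *Ephb4*, with none of its markers among its 10 leading genes. *Lbp* averaged 656 and 441 CPM in cluster 6 and 147 and 48.6 CPM in cluster 7. *Lrg1* averaged 2048 and 1456 CPM in cluster 6 and 1153 and 930 CPM in cluster 7. Both genes were higher in cluster 6 in each replicate, with no overlap. For *Myd88* the means were 206 and 352 CPM in cluster 6 against 50.0 and 3.13 CPM in cluster 7, the latter below the capillary-like mean of the same replicate. *Cd14* was found at 43.0 and 0.57 CPM in cluster 6 and at 0.25 and 1.91 CPM in cluster 7. Median reads per well were higher in cluster 6 (229362.5 and 279007) than in cluster 7 (135080 and 119679.5). Transcripts known to respond to tissue dissociation (40 genes) summed to 31050 and 20967 CPM in vein-like BECs, 18180 and 20579 CPM in artery-like and 17113 and 6120 CPM in the capillary-like class. Their part in the levels was not tested.

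**Figure D4:**
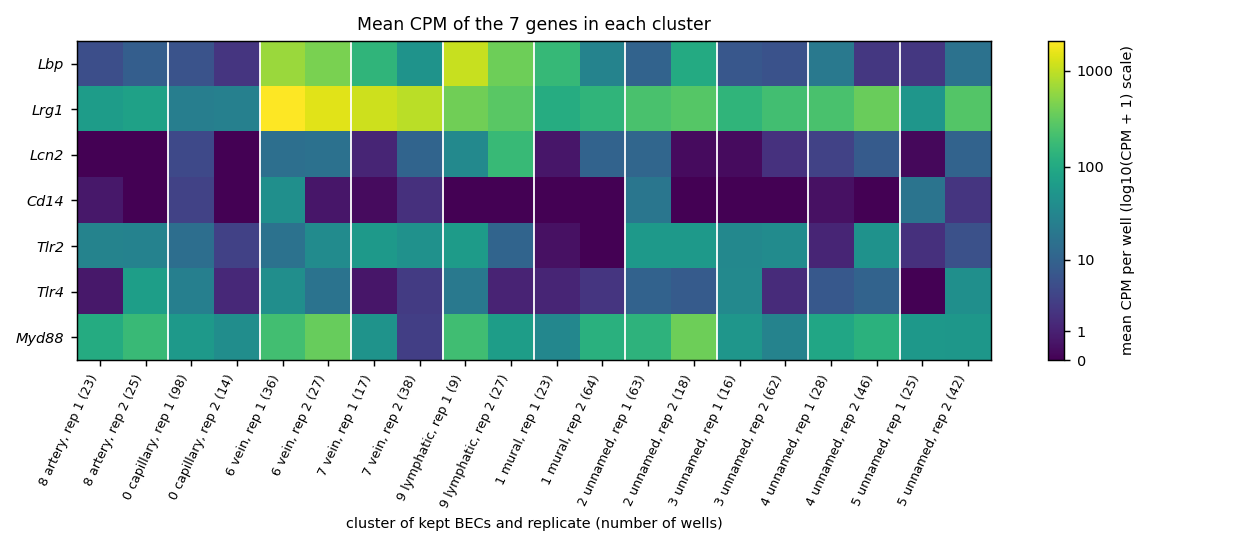
Mean CPM per well of the 7 genes (colour, log10(CPM + 1) scale) in each cluster of kept BECs, by replicate, with the number of wells. *Lrg1* is brightest in vein-like cluster 6 (2048 and 1456 CPM), and *Lbp* is bright in cluster 6 (656 and 441 CPM) and in lymphatic-like cluster 9 (1085 and 382 CPM).

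A read of *Lrg1* was found in 52 of 53 vein-like wells of replicate 1 and in all 36 of those with a read of *Lbp*. In replicate 2 it was found in 53 of 65 vein-like wells and in 25 of the 29 with a read of *Lbp*. Across vein-like wells, log2(CPM + 1) of both genes correlated at r = 0.43 (53 wells) and 0.30 (65 wells). Wells share plates and a replicate and differ in depth, so these values are a description. In kept BECs as a whole, r was 0.44 and 0.14, and in replicate 2 a set of unclassed wells had *Lbp* without *Lrg1*.

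**Figure D5:**
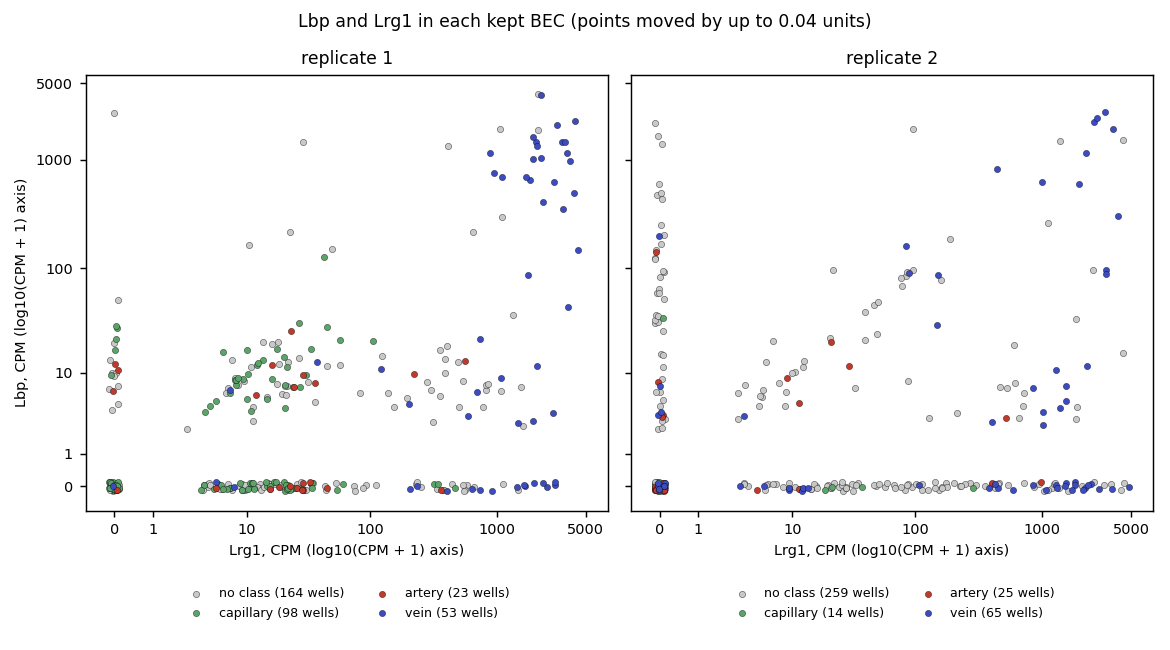
CPM of *Lbp* against *Lrg1* in each kept BEC (both log10(CPM + 1) axes), 1 panel per replicate, coloured by class; points are moved by up to 0.04 units to separate them. Vein-like wells lie to the right, with 35 and 31 wells of at least 1000 CPM of *Lrg1*, and spread from 0 to 3932 and 2760 CPM of *Lbp*.

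The genes whose pattern was most like that of a member were ranked by the mean of both replicates' correlations over 338 and 363 kept BECs, among 3631 genes. For *Lrg1* these were the selectin genes *Selp* (0.43) and *Sele* (0.40), *Rasa4* (0.38), *Ehd4* (0.37) and *Plvap* (0.36), which encodes the diaphragm protein of fenestrated and venous endothelium. For *Lbp* they were *Fgl2* (0.32), *Nqo1* (0.31), *Abi3bp* (0.29), *Lrg1* (0.29) and *Mmp2* (0.29). For *Myd88* the overlapping gene *Acaa1a* came first (0.48), ahead of *Gem* (0.30), *Tnfaip3* (0.29), *Rcan1* (0.26) and *Myc* (0.26). The other 4 genes were found in too few wells for a ranking.

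Kept BECs were also set against other sorted wells. They include the artery-, capillary- and vein-like wells whose values the choice of the genes had used, so the unclassed BECs, which it had not used, were tested separately. The unclassed BECs still held mural-named cluster 1 (23 and 64 wells) and lymphatic-like cluster 9 (9 and 27 wells). In lymphatic-gene wells, *Lbp* averaged 1949 CPM in 11 wells of replicate 1 and 507 CPM in 113 wells of replicate 2. Kept BECs averaged 124 and 80.6 CPM. The lymphatic-gene wells were higher in both replicates, and the fitted level in kept BECs was 12.2-fold lower (log2 ratio -3.61, SE 0.53, adjusted p = 5.7e-09, edgeR quasi-likelihood test with Benjamini-Hochberg adjustment and a threshold of 0.05). Vein-like BECs, too, lay 3.96- and 2.40-fold below lymphatic-gene wells. The call was lost in 4 of 11 alternatives, with adjusted p from 5.1e-10 to 0.414, whereas all 13 alternatives, including each replicate alone, kept the direction. Unclassed BECs alone, at 91.4 and 58.9 CPM, had a log2 ratio of -4.45 (SE 0.87, adjusted p = 0.0165, edgeR quasi-likelihood test), beside 0.23% of all genes that were lower in that fit. Lymphatic-like cluster 9, at 1085 and 382 CPM of *Lbp*, was part of these unclassed BECs and stayed in that fit.

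*Lcn2* averaged 220.1 and 277 CPM in lymphatic-gene wells, with a read in 45.5% and 41.6% of wells, against 6.37 and 19.4 CPM in kept BECs. The level in kept BECs was 28.4-fold lower (log2 ratio -4.83, SE 1.29, adjusted p = 0.019, edgeR quasi-likelihood test), a call kept in 4 of 11 alternatives (adjusted p 0.0021 to 0.804) with the direction in all 13. With unclassed BECs alone, at 7.04 and 23.9 CPM, *Lcn2* did not pass (log2 ratio -4.39, SE 1.18, adjusted p = 0.146 by edgeR). With *Lbp* and *Lcn2*, 2 of the 7 genes passed, both lower in BECs, beside 0.527% of the 17455 genes tested that were lower and 1.15% called in either direction. *Lrg1*, at 792 and 154 CPM in lymphatic-gene wells, did not pass (log2 ratio 0.37, SE 0.60) and its replicates went in opposite directions. *Myd88* (log2 ratio 2.59, SE 0.95, adjusted p = 0.289 by edgeR) and *Tlr4* (5.53, SE 2.94, adjusted p = 0.533) did not pass either, nor did *Tlr2* (2.02) and *Cd14* (-0.98).

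The lymphatic-gene wells had passed a sort against Lyve1 and were checked by their markers. All 7 lymphatic markers were found, summing to 5805 and 11024 CPM, against 17.1 and 97.9 CPM in vein-like BECs. Among them, *Prox1* (682 and 608 CPM) and *Lyve1* (1041 and 2950 CPM) had defined these wells and are no check. The lymphatic-like cluster 9 of kept BECs, which had raised lymphatic markers but under 100 CPM of *Prox1* and *Lyve1*, also held *Lbp* at 1085 and 382 CPM and *Lcn2* at 35.2 and 170 CPM in 9 and 27 wells. Raised in this cluster, too, were 5 of 6 fibroblast and 2 of 6 keratinocyte markers, and the part of such cells in its levels was not tested. Kept BECs without it averaged 97.4 and 56.4 CPM of *Lbp*. In these CD45- sorted wells the neutrophil markers *S100a8* and *Retnlg* were at 0, and all 4 neutrophil markers summed to 1.82 and 4.81 CPM. The 8 myeloid markers summed to 103 and 142 CPM there, of which *Mrc1* alone made 97.0 and 128 CPM, while *Adgre1* and *Cd68* were at 0 in both replicates.

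*Lrg1* averaged 378 and 383 CPM in kept BECs and 62.4 and 4.75 CPM in mural-gene wells. The former mural-gene mean was 17.8 CPM without the highest of 8 wells, which had 375 CPM. The log2 ratio of kept BECs to mural-gene wells was 5.40 (SE 0.73), to which the vein-like wells already known to be high contributed. With replicate 1 alone the ratio was 3.18, against a median of 2.69 over all genes. It was 7.48, against a median of 0.46, with replicate 2 alone. In replicate 1 artery-like (66.5 CPM) and capillary-like BECs (25.1 CPM) lay near or below the mural-gene mean. Unclassed BECs alone, at 186 and 240 CPM, had a log2 ratio of 4.48 (SE 0.98, adjusted p = 0.0238, edgeR quasi-likelihood test), beside 0.461% of all genes that were higher in that fit. These unclassed BECs included the mural-named cluster 1 (23 and 64 wells), in which 6 of 8 mural markers were raised. With kept BECs, where 1.02% of all genes were higher, *Lrg1* lost its call without the replicate block (adjusted p = 0.164) and with limma (0.174) and was called in 9 of 11 alternatives. *Lbp* did not pass (log2 ratio 1.44, SE 0.54, adjusted p = 0.214; with a marker limit of 300 CPM, 0.0384), with 5.37 and 100 CPM in mural-gene wells, of which the latter was 50.6 CPM without its highest well. *Lcn2* (4.42, adjusted p = 0.0906) and *Tlr2* (6.29, adjusted p = 0.271) passed with DESeq2's Wald test only, at 0.0394 and 0.0033. *Myd88* had 423 and 236 CPM in mural-gene wells (226 and 184 CPM without the highest well of each replicate), above the 96.7 and 114 CPM of kept BECs, with a log2 ratio of -1.33 (SE 0.91, adjusted p = 0.510 by edgeR).

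The other genes of these pathways were taken from a list of 89 genes in 7 role groups, of which 56 had enough counts for the class comparisons. Because the classes were themselves cut from expression of the same wells, p-values between them are too small. In vein-like BECs 2 genes of the list rose and none fell by edgeR, beside 0.211% of all genes that were higher and 0.313% called in either direction, while DESeq2's Wald test called 1 gene of the list and limma none. Both were from the group of interleukin-6 and Stat3 signalling, with a median log2 ratio of 0.48 over the list and 0.43 over all genes. *Il6st*, the signalling subunit shared by the receptors of the interleukin-6 family, averaged 1544 and 1520 CPM in vein-like, 362 and 383 CPM in artery-like with 253 and 126 CPM in the capillary-like class. Its log2 ratio was 2.13 (SE 0.47, adjusted p = 0.0146 by edgeR), positive in all 16 alternatives but past the threshold in 1 of 14 (adjusted p 2.0e-05 to 1). *Socs3*, a feedback inhibitor induced by Stat3, averaged 1069 and 626 CPM in vein-like BECs against 29.3 to 367 CPM in the other classes. Its log2 ratio was 2.89 (SE 0.64, adjusted p = 0.0139), past the threshold in 3 of 14 alternatives (adjusted p 3.2e-05 to 1). With all pathway genes left out of the clustering, the ratios were 2.00 and 1.72 for *Il6st* and *Socs3* and neither passed (adjusted p = 0.132 and 0.584, edgeR).

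None of the 56 genes passed in artery- or capillary-like BECs with edgeR, beside 0.174% and 0.145% of all genes. At an unadjusted p under 0.05 there were 2 and 6 of the 56 genes, beside 6.04% and 4.90% of all genes, and at the adjusted threshold DESeq2's Wald test called 1 gene in each comparison and limma none. The NF-kB group (13 genes, all tested) had a median log2 ratio of 0.97 in vein-like and -1.28 in capillary-like BECs without a call, against 0.43 and -0.32 over all genes. Its genes with the highest mean CPM were *Nfkbia*, which encodes an inhibitor of NF-kB, and *Nfkbiz*, which encodes a nuclear protein of the same family. *Nfkbia* averaged 1747 and 867 CPM in vein-like, 774 and 540 CPM in artery-like and 876 and 187 CPM in capillary-like BECs. *Nfkbiz* averaged 458 and 463 CPM in vein-like, 158 and 290 CPM in artery-like and 67.5 and 21.3 CPM in capillary-like BECs. *Nfkbiz* did not pass in vein-like BECs (log2 ratio 2.57, SE 0.76, adjusted p = 0.217 by edgeR). Both genes, and *Socs3*, are also in the list of 40 dissociation transcripts, whose sum given above was highest in vein-like and lowest in capillary-like BECs of each replicate. The part of dissociation in these levels was not tested.

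Of the 23 other acute-phase genes, only 3 had enough counts for the class comparisons. *Serping1*, the C1 inhibitor, averaged 59.3 and 188 CPM and *Cp*, ceruloplasmin, 24.6 and 135 CPM over kept BECs. Without the lymphatic-like cluster 9, where *Cp* was among the 10 leading genes, it averaged 12.0 and 29.0 CPM. The genes *Hp*, *Orm1*, *Apcs*, *Fgb* and *Fgg* had no read in any of the 701 kept BECs, which allows a share of up to 0.428%. Among the receptors, *Ly96*, the partner of Tlr4, averaged 6.87 and 9.74 CPM and *Tlr3*, a receptor for double-stranded RNA, 34.5 and 17.2 CPM, while *Tlr5* and *Tlr7* had no read in kept BECs (up to 0.428%). *Hsp90b1* and *Unc93b1*, which fold and transport Toll-like receptors, averaged 250 and 241 CPM and 102 and 76.7 CPM. *Tollip* (150 and 102 CPM) and *Irf7* (165 and 78.4 CPM), which encodes a transcription factor, had the highest mean CPM of the role group listed as adaptors and kinases. Of the 2 Lcn2 receptors, *Slc22a17* averaged 6.48 and 15.9 CPM and *Lrp2* 0.16 and 3.75 CPM.

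Against lymphatic-gene wells, 63 genes of the list were tested, 2 were lower in BECs and none was higher by edgeR, beside 0.527% of all genes that were lower. DESeq2's Wald test called 5 of the 63 and limma none. *Cp* averaged 1116 and 914 CPM in lymphatic-gene wells, and its level in kept BECs was 37.6-fold lower (log2 ratio -5.23, SE 0.62, adjusted p = 2.0e-14 by edgeR, past the threshold in 8 of 11 alternatives). *Serping1* had a log2 ratio of -1.84 (SE 0.40, adjusted p = 0.00083 by edgeR) on the summed counts, past it in 5 of 11. Its mean per well was lower in kept BECs in replicate 1 (59.3 against 243 CPM) but not in replicate 2 (188 against 185 CPM). The list's median log2 ratio was 0.71, against 0.53 over all genes. Against mural-gene wells *Serping1* (log2 ratio -4.56, SE 0.45) and *Steap4*, a metalloreductase (log2 ratio -5.44, SE 0.57), were lower in BECs and none was higher, with a list median of 0.72 and 0.85 over all genes. Their adjusted p-values by edgeR were 3.5e-21 and 3.2e-18, and they passed in 10 and 9 of 11 alternatives. These were 2 of the 63 genes by edgeR, beside 1.96% of all genes called in either direction, while DESeq2's Wald test called 6 and limma none. The mural-gene wells also carried fibroblast markers at 2908 and 4699 CPM, against 615 and 854 CPM in unclassed BECs. Their part in the differences of *Serping1* and *Steap4* was not tested.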

How the data were processed

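Smart-seq2 libraries of sorted ear dermal cells (4 plates of 384 wells, 2 replicates with plates A and B) were sequenced by the authors as single reads, aligned to mm10 with TopHat2 2.1.1, cleared of duplicate reads with SAMtools 0.1.18 and counted with Subread 1.4.6-p5. The authors deposited raw counts per gene and well; the annotation release is not given in the sources used here. Removal of duplicates limits the counts of short abundant genes. The 92 spike-in sequences stayed out of all totals, and 46005 identifiers were matched to GENCODE vM21 symbols. No wells had identical counts.

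The 7 genes, the pathway lists, the tests and the alternatives were chosen with earlier results of these data known. A well was kept with at least 600 reads, 500 to 8000 genes and the marker limits given above; the level of 100 CPM is not from the paper. Other than by the limit of 8000 genes, no doublets were removed. Size factors came from scran 1.30.0. The 1000 most variable protein-coding genes, without the 7 genes and without mitochondrial, ribosomal-protein and dissociation genes, were scaled within replicate, reduced to 15 principal components and clustered over 15 neighbours with leidenalg 0.10.2. A cluster was named with at least 3 markers of a class 1.3 times higher than in other wells of both replicates. The resolution of 1.5 had the most such markers (22), tied with 2.0, and the lower was taken. The names are rebuilt and may differ from those of the study.

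Counts were summed per replicate and class (6 sums), or per replicate and kind of well (kept, mural-gene with under 100 CPM of *Pecam1*, lymphatic-gene with under 100 CPM of *Ptprc*, *Pdgfrb* and *Kcnj8*; 6 sums). All genes that reached 10 counts in 2 or more sums entered the quasi-likelihood test of edgeR 4.0.16 (TMM normalization, Benjamini-Hochberg adjustment over all genes tested, threshold 0.05). The replicate was a block because wells within 1 replicate were drawn from 1 pool of cells, whether or not both replicates share that pool. Deviations from class means correlated within replicate at 0.100, 0.0963 and 0.0785 between classes and at 0.0864, 0.108 and 0.0446 between kinds of well. Zero counts are given with the share that 3 wells would make.

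Besides the 7 genes, those named are list genes past the threshold that moved alike in both replicates (at most 6 per comparison), the 1 or 2 of each role group with the highest mean CPM in kept BECs, and for genes with a read in at least 20% of kept BECs of both replicates the 5 most correlated genes (log2 with a pseudocount of 1). *Hp*, *Orm1*, *Apcs*, *Fgb*, *Fgg*, *Tlr5* and *Tlr7* were named once their values were known. Alternatives were DESeq2's size factors in edgeR, the DESeq2 1.42.0 Wald test, limma 3.58.1 on mean CPM, no low-count filter, no block, 10 or 300 CPM as the marker limit, all 3 BEC genes required, single plates, classes from marker scores with and without *Selp*, *Sele* and *Vcam1*, clusters without pathway genes, only unclassed wells as BECs (added after seeing the data), and leaving out a replicate. The fit code was tested on simulated data. R 4.3.3, Python 3.11.15 and scanpy 1.11.5 were used.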

Additional observations from a re-analysis of the deposited data

Results flagged for a closer look

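Over 41 sets of 4 plate means, 6 had a plate that stood apart from the other 3 by Dixon's criterion; chance gives about 1 in 20. In artery-like BECs, *Tlr4* averaged 97.7 CPM on plate B of replicate 2 and at most 1.01 CPM on the other plates, from 3 of 18 wells. In capillary-like BECs, plate A of replicate 1 stood apart with 8.58 CPM of *Lcn2* (4 of 44 wells with a read) and 7.18 CPM of *Cd14* (3 of 44 wells), where the other plates had at most 0.92 and 0.57 CPM. In lymphatic-gene wells, *Tlr2* averaged 34.4 CPM on plate A of replicate 1, from 2 of 7 wells, against at most 4.54 CPM elsewhere. *Lcn2* was lowest there on plate B of replicate 1, at 73.7 CPM from 1 of 4 wells, against 273 to 304 CPM on the others. In mural-gene wells, *Lrg1* averaged 128 CPM on plate A of replicate 1, from 3 wells, against 3.90 to 23.0 CPM on the other plates.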

How the results depend on the processing

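The numbers of genes past the threshold were 43 for vein-like, 24 for artery-like and 20 for capillary-like BECs, and 201 and 342 for kept BECs against lymphatic-gene and mural-gene wells. In the same order, DESeq2's Wald test gave 245, 339, 156, 448 and 1194, limma on mean CPM 0, 1, 1, 0 and 0, plate A alone 16, 13, 9, 59 and 124, and plate B alone 21, 12, 15, 83 and 102. Without the replicate block they were 5, 1, 1, 26 and 64, and the calls of *Lbp* and *Lcn2* against lymphatic-gene wells (adjusted p = 0.352 and 0.149) and of *Lrg1* against mural-gene wells (0.164) were lost. A marker limit of 10 CPM gave 24 vein-like, 37 capillary-like, 86 lymphatic and 135 mural calls, and in replicate 1 it left 18 wells. A limit of 300 CPM gave 0 for each class, and requiring all 3 BEC genes gave 4, 0 and 0 for vein-, artery- and capillary-like BECs. Classes from marker scores, with or without *Selp*, *Sele* and *Vcam1*, gave 0 throughout, clusters without pathway genes 7, 4 and 0, and the lowest resolution with all classes, chosen after seeing the data, 3, 4 and 0. Without the low-count filter artery- and capillary-like BECs had 40 and 43 calls. For *Lbp*, the lymphatic contrast lost its call also with DESeq2's Wald test (adjusted p = 0.0959), a 10 CPM limit (0.219) and limma (0.414).

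DESeq2's size factors in edgeR moved the median log2 ratio of all genes from 0.43 to 0.30 for vein-like and from -0.32 to -0.21 for capillary-like BECs, from 0.53 to 0.33 against lymphatic-gene and from 0.85 to 0.62 against mural-gene wells. Calls of higher and lower genes were then 28 and 2 for capillary-like BECs (14 and 6 with TMM) and 87 and 113 against lymphatic-gene wells (109 and 92). Of the 24 artery-like calls, DESeq2's Wald test shared 17 among its 339. With unclassed wells alone as BECs, an alternative chosen after seeing the data, 88 genes were called against lymphatic-gene and 168 against mural-gene wells. Where a count changed, the cause was not tested.

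With 14 capillary-like wells in replicate 2, a mean of *Lbp*, *Lcn2*, *Cd14* or *Tlr4* rests on 0 or 1 reads, and for *Cd14*, *Tlr2*, *Tlr4* and *Lcn2* single wells set the mean of a class. In the mural-gene wells of replicate 1, 1 of 8 wells moves the means of *Lrg1* and *Myd88* by over 1.5 times.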

Other observations

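Of the wells that were neither kept nor counted as mural-gene or lymphatic-gene wells (411 in replicate 1 and 254 in replicate 2), 31 and 4 had at least 1000 CPM of *Lrg1* and 5 and 7 at least 1000 CPM of *Lbp*. The highest *Lbp* value of all wells was in a shallow well of plate B of replicate 2, where 1168 of 21954 reads fell on *Lbp*. This was 5.32% of its reads (exact binomial 95% interval 5.03 to 5.63) or 53202 CPM, and the next highest well of the 4 plates had 6200 CPM. The well had a read of *Pecam1*, *Cdh5* and *Kdr* and 182 CPM of *Pdgfrb*, which kept it out of the BECs described above. Under a marker limit of 300 CPM it fell among the capillary-like BECs of replicate 2, whose mean *Lbp* level was then 946 CPM.

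Vein-like wells held 3.21 and 1.92 of the 7 genes on average, artery-like wells 2.30 and 1.36 and capillary-like wells 1.98 and 0.71, and the median reads per well fell from 137517.5 to 64549.5 in the last class. At least 3 of the genes were found in 40 of 53 and 16 of 65 vein-like wells, and no kept well held more than 5.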
